A study of Mus musculus with 2 samples.

Results

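The 37 genes described here are markers of cumulus, granulosa and luteal cells, the somatic cells of the ovarian follicle and of the corpus luteum that forms from it. They were taken by symbol from the Ensembl gene IDs of a table of 36227 mouse genes, and each of the 37 had a row. RNA was counted in 2 libraries, 1 from aged ICR females of 12 months and 1 from young ICR females of 3 months. Each library is a pool of 18 MII oocytes, the mature eggs arrested at the second meiotic metaphase, 3 from each of 6 mice after natural ovulation, and is called a pool below. The labels name no allele or agent for either age, and they do not say how the surrounding cumulus cells were removed. The question put to these genes is how much RNA of follicular somatic cells was counted beside that of the oocytes, and some of them are also expressed in other cells. The aged pool held 18597656 counts and the young pool 19475110. A level is given in CPM, counts scaled to a total of 1e+06 per pool. In ratios a count of 0 was set to 3 counts, which is 0.161 CPM in the aged pool and 0.154 CPM in the young pool. The 95% interval of a count of 0 reached 0.198 CPM in the aged pool and 0.189 CPM in the young pool. With 1 library per age no test between the ages was possible, intervals are 95% intervals of counting error only, and the reads carried no molecular identifiers.

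The labelled cell type was checked against 20 oocyte markers. The 19 that matched a row had counts in both pools and made up 13.2% of all counts in the aged pool and 23.4% in the young pool. Their most abundant member was Gdf9, a growth factor that the oocyte secretes to its cumulus cells, with 42795 CPM in the aged pool and 97099 CPM in the young pool. H1foo, the oocyte linker histone, had 39296 CPM in the aged pool and 53502 CPM in the young pool. Not all markers of the list were this abundant. Per length, Nobox ranked 1949 in the aged pool and 1945 in the young pool, Kit ranked 4036 in the aged pool and 2943 in the young pool, and Figla, with 25 counts in the aged pool and 206 in the young pool, ranked 7021 in the aged pool and 2432 in the young pool.

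In the growing follicle, granulosa cells take up follicle-stimulating hormone signals through Fshr, turn androgens into oestradiol with the aromatase Cyp19a1 and secrete inhibins and anti-Müllerian hormone. The luteinising hormone surge acts on mural granulosa cells through Lhcgr and induces EGF-like ligands, which make the cumulus cells build a hyaluronan matrix and let the oocyte resume meiosis. After ovulation the remaining granulosa and theca cells become luteal cells, which make progesterone from cholesterol with Star, Cyp11a1 and Hsd3b1.

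Of the 19 members with more than 3 counts in a pool, Cyp19a1, Nr5a2 and Fshr stood at least 2-fold higher in the aged pool. By the same rule 29.9% of 14716 genes were higher, so the members are not set apart by this. Fshr had 0 counts in the young pool and passed through aged counts alone. The 3 genes were taken for their direction only, and the sequences before their annotated starts are shown for that reason. The windows are the 250 bases before a RefSeq gene start on GRCm38.p6, matched by symbol, and all 3 lie on the minus strand: chr9:54268165-54268414 for Cyp19a1, chr1:136960449-136960698 for Nr5a2 and chr17:89200676-89200925 for Fshr. Capitals mark AGGTCA or its reverse complement TGACCT, the half-site that Nr5a1, Nr5a2 and many other nuclear receptors can bind. Cyp19a1 has 3 annotated starts in that table and Nr5a2 has 2, and for each the window with the half-site is printed. The other windows of both genes did not hold it. For Cyp19a1, the bases just after the printed start were not found as an unbroken run in an annotated transcript. The counts do not tell which start was used.
Cyp19a1: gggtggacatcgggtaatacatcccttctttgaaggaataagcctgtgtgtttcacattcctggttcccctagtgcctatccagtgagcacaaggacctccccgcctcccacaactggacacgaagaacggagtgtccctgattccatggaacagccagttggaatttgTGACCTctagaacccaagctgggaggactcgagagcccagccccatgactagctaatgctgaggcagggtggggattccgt
Nr5a2: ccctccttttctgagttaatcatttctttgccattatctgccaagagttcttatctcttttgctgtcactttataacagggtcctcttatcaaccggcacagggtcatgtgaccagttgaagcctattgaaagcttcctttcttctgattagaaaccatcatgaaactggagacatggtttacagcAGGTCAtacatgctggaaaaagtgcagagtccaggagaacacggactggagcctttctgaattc
Fshr: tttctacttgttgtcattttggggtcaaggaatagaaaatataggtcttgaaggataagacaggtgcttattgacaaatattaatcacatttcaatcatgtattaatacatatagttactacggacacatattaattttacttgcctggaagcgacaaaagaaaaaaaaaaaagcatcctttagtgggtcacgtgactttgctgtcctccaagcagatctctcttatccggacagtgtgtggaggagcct

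The half-site began 81 bases before the printed Cyp19a1 start and 64 bases before the printed Nr5a2 start, and its letters were not in the Fshr window. Of 37 members 28 matched a window, 33 windows in all, and 8 windows held the half-site. Among all 32851 windows of this length 14.0% held it. The members with it were Amhr2, Cyp11a1, Cyp19a1, Grem1, Inha, Lhcgr, Nr5a2 and Tnfaip6, of which 6 had counts in a pool and Amhr2 and Lhcgr had none. A match of these letters is a description and not a bound site.

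Most of the 37 markers had few counts or none, and most marker counts came from Cyp19a1, Esr2 and Fdx1. The members together had 1802 counts or 96.9 CPM in the aged pool (92.5 to 101) and 1713 counts or 88.0 CPM in the young pool (83.8 to 92.2). Cyp19a1, Esr2 and Fdx1 made up 88.1% of these counts in the aged pool and 80.4% in the young pool. The other 34 members summed to 214 counts (11.5 CPM, 10.02 to 13.2) in the aged pool and 336 counts (17.3 CPM, 15.5 to 19.2) in the young pool. The sum of all members was 1.10-fold higher in the aged pool (1.03 to 1.18). It was 1.63-fold lower without Cyp19a1 (1.49 to 1.79) and 1.499-fold lower without Cyp19a1, Esr2 and Fdx1 (1.26 to 1.79), so its direction rested on Cyp19a1. It was also lower in the aged pool with TMM scaling, DESeq2 size factors, centring on the median gene and totals without the top 100 genes, each of which shifts all genes alike. Set against the oocyte marker counts, in a comparison added after the data were seen, the members had 734 counts per 1e+06 oocyte marker counts in the aged pool and 376 in the young pool, a log2 ratio of 0.96. The oocyte markers themselves took a smaller share of the aged pool, as given above. In pooled oocytes, the number of attached somatic cells, the RNA per such cell and RNA of the oocytes themselves cannot be told apart.

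For 12 of the 37 members the table is blank in both columns. No row of the table holds 0 in both pools, so a blank is read here as no count in either. Among 19753 protein-coding genes 28.3% were blank, a share near that of the members, so nothing is read from the number of blanks. The blank members include Foxl2, the transcription factor that maintains granulosa identity, Amh, its receptor gene Amhr2, Lhcgr, Star and the inhibin and activin subunit genes Inhba and Inhbb. The others were Cyp17a1, Pgr, the progesterone receptor gene, and the EGF-like ligand genes Areg, Ereg and Btc. Other granulosa and steroidogenic markers were counted in at least 1 pool, among them Cyp19a1, Cyp11a1, Fshr, Inha and Nr5a1. A count was present for 14 members in the aged pool and 23 in the young pool, while 65.8% of protein-coding genes had 1 in the aged pool and 66.3% in the young pool. At least 10 counts were reached by 7 members in the aged pool and 14 in the young pool, where 51.8% of protein-coding genes reached them in either.

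Of the 25 members with a count, 11 were listed at 0 in the aged pool and 2 at 0 in the young pool, and 12 had counts in both. Among protein-coding genes with a count in either pool, 8.25% were at 0 in the aged pool and 7.58% at 0 in the young pool. Of the members at 0 in the aged pool, Hsd17b1, Ptgs2 and Adamts1 had at most 3 counts in the young pool, and the counting intervals of Runx1 and Vcan reached equality. In a band of 5 to 50 counts in the young pool, chosen after the values were seen, 7 of 12 members were at 0 in the aged pool, against 10.1% of protein-coding genes. In the same band of aged counts, 1 of 5 members was at 0 in the young pool, against 9.46% of protein-coding genes. Each band takes members by their counts in 1 pool and was set with the zeros known, so nothing is read from these shares. The 7 members at 0 in the aged pool were Scd1, Inha, Fst, Nr5a1, Gja1, Cd44 and Runx1, and they had a median GC content of 46.6% in their longest coding transcript. All protein-coding and other genes of the same band that were at 0 in the aged pool had a median GC content of 53.0%. The ratio varied with GC content across genes, with a median log2 of 1.04 in the lowest GC decile and -0.28 in the highest, and values corrected for length and GC content are given below for the members above the floor.

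**Figure D1:**
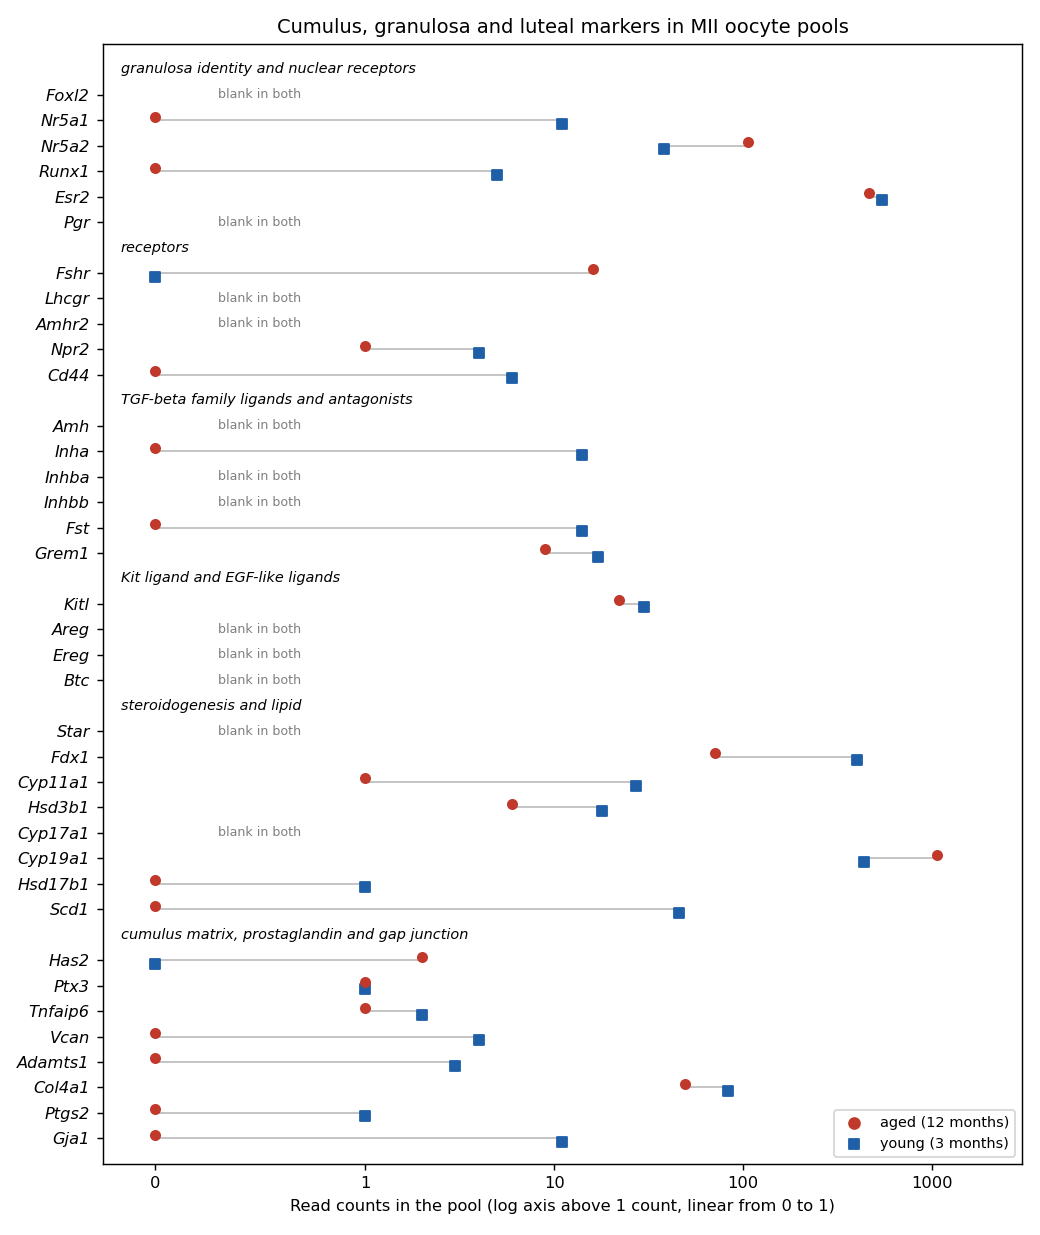
Read counts of each of the 37 members in the aged pool (red circles) and the young pool (blue squares), grouped by role, on a log axis that is linear from 0 to 1. The 12 members without a count are marked as blank, 11 members sit at 0 in the aged pool and 2 at 0 in the young pool, and 100 counts are passed by Cyp19a1 and Esr2 in both pools, by Nr5a2 in the aged pool and by Fdx1 in the young pool.

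Genes whose mean over the pools was 20 counts or more were compared by a rule of size, at least 2-fold, with 3 counts set in place of 0. Of 37 members 7 reached that floor, and they reached it by their own levels, so they do not stand for the other 30. Of the 7, Cyp19a1 and Nr5a2 stood at least 2-fold higher in the aged pool, where 27.9% of 10211 genes were. Fdx1 and Scd1 were at least 2-fold lower, where 10.6% of genes were, and Esr2, Kitl and Col4a1 were within 2-fold. Scd1 reached the floor through young counts alone, so nothing is read from its place among the lower members. The 7 members had a median log2 ratio (aged over young) of -0.38, or -0.27 without Scd1, and all genes above the floor had 0.43. Centred on that median gene, 1 member was higher (Nr5a2) and 3 were lower (Fdx1, Scd1 and Col4a1), where 16.0% and 17.3% of genes were. With the median of each length and GC bin taken off, neither Cyp19a1 nor Nr5a2 was 2-fold higher, at log2 0.73 for Cyp19a1 and 0.77 for Nr5a2, and Kitl passed 2-fold lower. These 7 ratios are too few to set the markers apart from other genes.

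**Figure D2:**
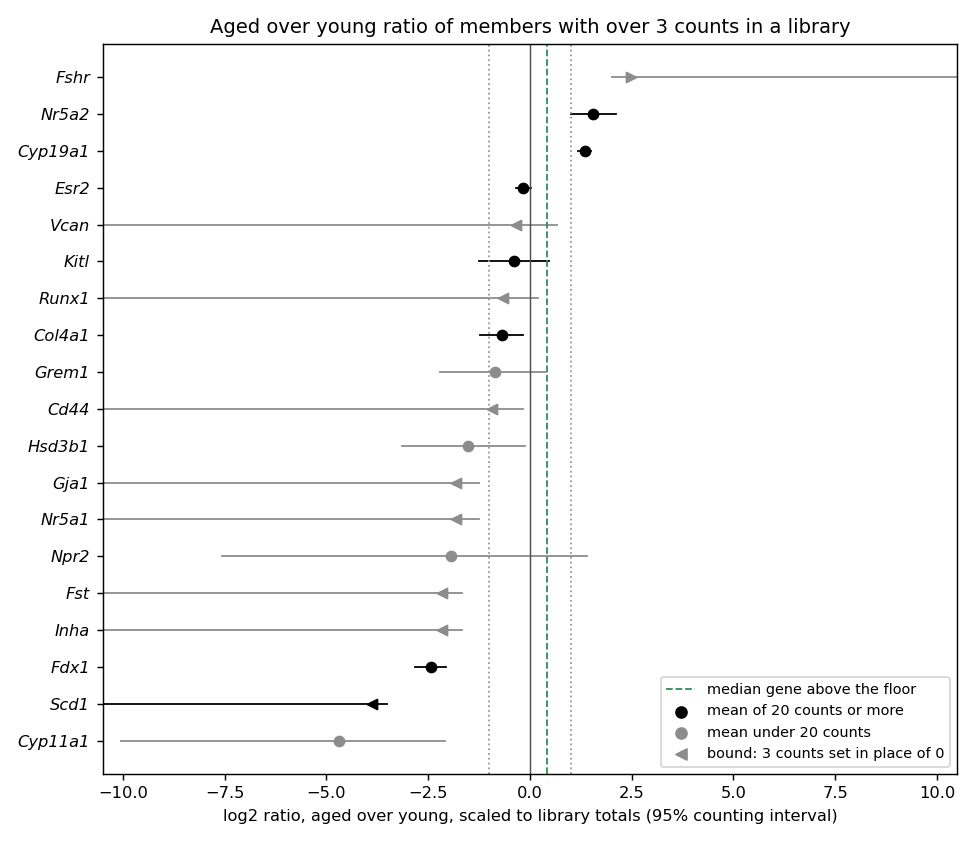
Log2 ratio of aged over young for the 19 members with more than 3 counts in a pool, with 95% counting intervals that run off the plot where a pool had 0 counts. Circles are measured ratios and triangles are ratios with 3 counts set in place of 0. Black marks the 7 members with a mean of at least 20 counts, the dotted lines are 2-fold and the dashed line is the median gene at 0.43.

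Steroid synthesis held most of the counts, and its members differed in direction. Cyp19a1 (ENSMUSG00000032274, chromosome 9), the aromatase gene, had 1056 counts in the aged pool and 436 in the young pool, or 56.8 CPM (53.4 to 60.3) in the aged pool and 22.4 CPM (20.3 to 24.6) in the young pool. It was 2.54-fold higher in the aged pool (2.27 to 2.84). Per kilobase of transcript it was the most abundant member in both pools, with 23.2 CPM per kb at rank 2097 in the aged pool and 9.13 CPM per kb at rank 3033 in the young pool among 17215 genes. Its log2 ratio of 1.34 became 0.92 relative to the median gene, below 2-fold.

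Fdx1 (ENSMUSG00000032051, chromosome 9), the ferredoxin gene whose product passes electrons to mitochondrial steroidogenic cytochromes, differed in the other direction. It had 71 counts (3.82 CPM) in the aged pool and 400 counts (20.5 CPM) in the young pool. The level was 5.38-fold lower in the aged pool (4.17 to 7.03), and its log2 ratio of -2.43 became -3.31 with the length and GC correction. Ferredoxin also serves other mitochondrial reactions in many cell types.

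Scd1 (ENSMUSG00000037071, chromosome 19), a fatty acid desaturase gene, had 0 counts in the aged pool and 46 in the young pool. It was at least 14.6-fold lower in the aged pool, and the near end of its counting interval was 11.4-fold. Of its transcript's 35-base words 7.38% also occur in another gene, led by its paralogs Scd3, Scd2 and Scd4. Its paralog Scd2, chosen after its values were seen, had 5 counts in the aged pool and 117 in the young pool, while Scd3 had 9 in the aged pool and 0 in the young pool.

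Cyp11a1, which makes pregnenolone from cholesterol, had 1 count in the aged pool and 27 in the young pool. That ratio was 25.8-fold lower in the aged pool, with a counting interval of 4.25 to 1056 because it rests on a single aged count. Hsd3b1, which converts pregnenolone to progesterone, had 6 counts in the aged pool and 18 in the young pool, 2.86-fold lower in the aged pool (1.09 to 8.82). For Hsd3b1 11.1% of 35-base words are shared with other genes, led by Hsd3b6 and Hsd3b2. Hsd17b1, which reduces oestrone to oestradiol, had 0 counts in the aged pool and 1 in the young pool, and Star and Cyp17a1 were blank. Cyp19a1 had more counts in both pools than Cyp11a1, Hsd3b1 and Cyp17a1, and which cells gave these counts was not tested.

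Among the transcription factors and nuclear receptors, Esr2 (ENSMUSG00000021055, chromosome 12), which encodes oestrogen receptor beta, was the most abundant. It had 461 counts (24.8 CPM, 22.6 to 27.2) in the aged pool and 541 counts (27.8 CPM, 25.5 to 30.2) in the young pool. The aged level was 1.12-fold lower, and the interval, from 1.27-fold lower to 1.01-fold higher, included equality with library totals. Its log2 ratio of -0.16 lay between -0.45 and -0.73 with the other scalings and the length and GC correction. The 2 Nr5a receptor genes differed in direction. Nr5a2, also known as Lrh1, had 106 counts (5.70 CPM) in the aged pool and 38 (1.95 CPM) in the young pool, 2.92-fold higher in the aged pool (1.999 to 4.35). Its log2 ratio of 1.55 became 0.77 with the length and GC correction, below 2-fold. Nr5a1, which encodes steroidogenic factor Sf1, had 0 counts in the aged pool and 11 in the young pool. It was 3.50-fold lower in the aged pool with 3 counts in place of 0 (near end 2.40-fold). Runx1 had 0 counts in the aged pool and 5 in the young pool, and its interval reached equality.

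Receptors at the cell surface had few counts or none. Fshr (ENSMUSG00000032937, chromosome 17) had 16 counts (0.860 CPM) in the aged pool and 0 in the young pool. Its level was 5.58-fold higher in the aged pool with 3 counts in place of 0 (near end 4.04-fold). It was the only member with more than 3 counts that was listed at 0 in the young pool. Npr2, the receptor through which cumulus cells raise cyclic GMP to hold the oocyte in arrest, had 1 count in the aged pool and 4 in the young pool. Cd44, a hyaluronan receptor gene, had 0 counts in the aged pool and 6 in the young pool.

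The secreted ligands and antagonists were low as well. Inha, the inhibin alpha subunit gene, had 0 counts in the aged pool and 14 in the young pool. Its level was 4.46-fold lower in the aged pool with 3 counts in place of 0 (near end 3.17-fold). Fst, which encodes the activin-binding protein follistatin, also had 0 counts in the aged pool and 14 in the young pool. Grem1, a BMP antagonist gene that cumulus cells express in response to the oocyte, had 9 counts in the aged pool and 17 in the young pool, 1.80-fold lower in the aged pool with an interval that included equality. Kitl, the ligand of the oocyte receptor Kit, had 22 counts (1.18 CPM) in the aged pool and 30 (1.54 CPM) in the young pool, and its interval too included equality. Its log2 ratio of -0.38 became -1.39 with the length and GC correction, past 2-fold.

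Cumulus expansion genes, which are strongly induced in cumulus cells before ovulation, had almost no counts. Has2, the hyaluronan synthase gene, had 2 counts in the aged pool and 0 in the young pool. Ptx3 had 1 count in each pool, Tnfaip6 had 1 in the aged pool and 2 in the young pool, and both encode proteins that stabilise the hyaluronan matrix. Ptgs2, the inducible prostaglandin synthase gene, had 0 counts in the aged pool and 1 in the young pool. No fold is given for these, since neither pool exceeded 3 counts. Vcan, the gene of the matrix proteoglycan versican, had 0 counts in the aged pool and 4 in the young pool. Adamts1, whose protease acts on versican, had 0 in the aged pool and 3 in the young pool. Gja1, which encodes the gap junction protein connexin 43 of cumulus cells, had 0 counts in the aged pool and 11 in the young pool. Its level was 3.50-fold lower in the aged pool with 3 counts in place of 0 (near end 2.40-fold). Col4a1, a basement membrane collagen gene, was the exception with 49 counts (2.63 CPM) in the aged pool and 83 (4.26 CPM) in the young pool, 1.62-fold lower in the aged pool (1.12 to 2.35). In the annotation it overlaps Col4a2 on the opposite strand, and no label says whether counting used the strand. Overlapping genes are also annotated for Cd44, Cyp11a1, Esr2, Fst, Has2, Npr2, Nr5a1, Ptx3, Runx1 and Vcan, whose reads may not be told apart from those of their partners. Apart from Hsd3b1 and Scd1, no counted member shared more than 2.97% of its 35-base words with another gene, the value of Fst.

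**Figure D3:**
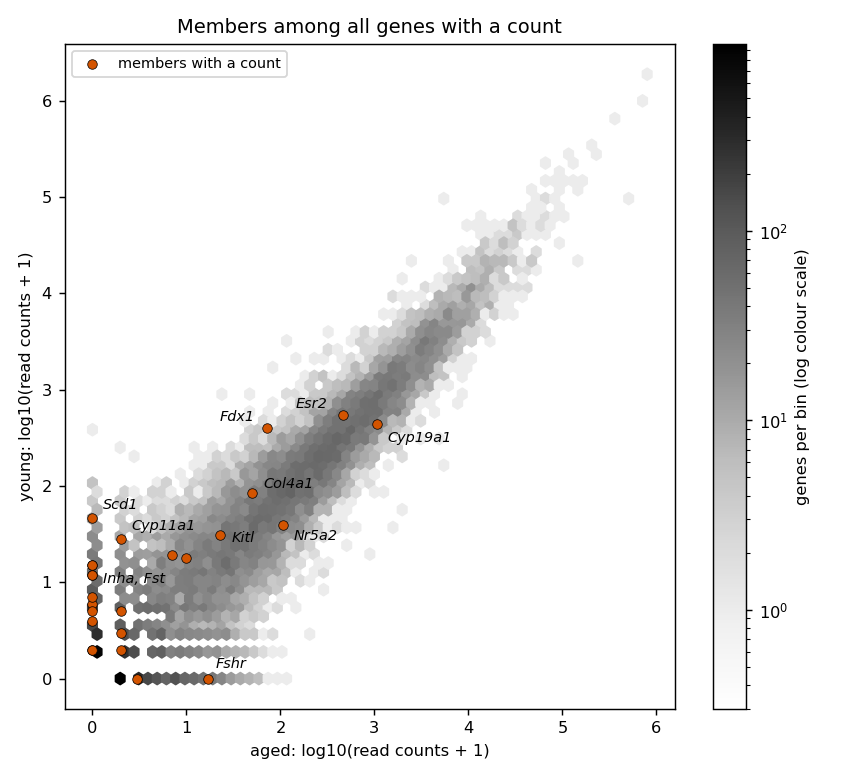
Log10 of read counts plus 1 in the aged pool (horizontal) and the young pool (vertical) for the 18364 genes with a count (grey bins) and the 25 members with a count (orange). Fdx1, with 71 aged and 400 young counts, lies above the main band of genes, and 11 members lie on the left edge at 0 aged counts.

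In the authors' deposited table, which compares the reads of the 2 pools and not the ages, 20 members had a p-value. Of these, 3 were marked in the authors' deposited table as higher in the aged pool at p below 0.001 (Cyp19a1, Nr5a2 and Fshr), where 34.4% of genes were. Another 7 were marked in the authors' deposited table as lower in the aged pool (Fdx1, Scd1, Cyp11a1, Inha, Fst, Nr5a1 and Gja1), where 15.6% of genes were. Scd1, Inha, Fst, Nr5a1 and Gja1 had counts in the young pool alone, Cyp11a1 had a single aged count, and Fshr had counts in the aged pool alone. Their marks thus rest on the pool where they were high, and nothing is read from these numbers of marks.

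Partner genes of the same pathways had larger summed counts than the members. Of 15 steroid and cholesterol genes 14 had counts in both pools, with 408 CPM in the aged pool and 358 CPM in the young pool, and 2 of the 11 above the floor passed 2-fold toward higher in the aged pool and none toward lower. Por, which feeds electrons to microsomal cytochromes such as aromatase, had 1362 counts in the aged pool and 1948 in the young pool. Scarb1, the HDL receptor gene, had 1300 in the aged pool and 1195 in the young pool, and Npc1, a cholesterol transporter gene of lysosomes, had 1905 in the aged pool and 1597 in the young pool. Of 15 genes of gonadotropin and EGF signalling, 13 were above the floor, 5 at least 2-fold higher in the aged pool and 1 lower. Rgs2, a regulator of G protein signalling, led this list with 26098 counts in the aged pool and 13539 in the young pool. Of 17 TGF-beta receptor and Smad genes, through which inhibin, activin and Gdf9 signals pass, 15 were above the floor, 5 at least 2-fold higher in the aged pool and 1 lower. Smad3 had 19490 counts in the aged pool and 22460 in the young pool, Bmpr1b 5384 in the aged and 2046 in the young pool, and Acvr1b 1796 in the aged and 5308 in the young pool. The share of all genes at least 2-fold higher was 27.9%, so these counts of higher genes lay near the background. Relative to the median gene 1, 3 and 2 genes of the 3 lists were higher and 2, 1 and 3 lower.

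A further list of 20 cumulus and granulosa genes had 12 genes with counts in the aged pool and 15 in the young pool. Its sum of 735 CPM in the aged pool and 1669 CPM in the young pool came mostly from Plat, Serpine2 and Gata4. Wt1, Ccnd2, Inhbc, Ihh and Slc38a3 of that list were blank. Plat, which encodes tissue plasminogen activator and is also a known maternal transcript of the mouse oocyte, had 2390 counts in the aged pool and 20999 in the young pool, 8.39-fold lower in the aged pool (near end 8.04-fold). Serpine2, a protease inhibitor gene, had 9769 counts in the aged pool and 9833 in the young pool, and Gata4 had 1309 in the aged pool and 1415 in the young pool. Among the 7 genes of this list that reached the floor, 2 passed 2-fold toward higher in the aged pool and 3 toward lower. Gata6 had 142 counts in the aged and 47 in the young pool, and Cyp51 45 in the aged and 3 in the young pool. Timp1 had 0 counts in the aged and 108 in the young pool, and Vim 0 in the aged and 51 in the young pool. Timp1 and Vim reached the floor through young counts alone, so nothing is read from the number of lower genes.

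Markers of other cells were set beside these results. The 18 general somatic cytoskeleton and matrix genes summed to 27.7 CPM in the aged pool and 72.6 CPM in the young pool, with 8 at 0 in the aged pool and 1 at 0 in the young pool, while 8.25% of counted protein-coding genes were at 0 in the aged pool and 7.58% in the young pool. Of the 10 above the floor, 7 passed 2-fold toward lower in the aged pool, where 10.6% of all genes did, and S100a6, S100a10, Tagln2 and Vim reached the floor through young counts alone, so nothing is read from that count. S100a6, a calcium-binding protein gene, had 0 counts in the aged pool and 349 in the young pool, and the near end of its interval was 89.9-fold lower. Anxa2 had 267 counts in the aged pool and 298 in the young pool, and Lmna had 105 in the aged pool and 272 in the young pool. The part of these somatic genes in the values of the members was not tested.

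Of 10 erythroid markers 7 had a row and 1 had a count, a single young count of Alas2, and the leukocyte markers Ptprc, Csf1r, Itgam, Adgre1 and Cd14 had at most 2 counts in either pool. Cd68, a lysosomal protein gene, had 84 counts in each pool. The 10 theca and stroma markers summed to 47.0 CPM in the aged pool and 19.4 CPM in the young pool, mostly from Myh11 with 826 counts in the aged pool and 337 in the young pool, and Dcn and Lum were blank. Endothelial markers summed to 88.5 CPM in the aged pool and 42.7 CPM in the young pool, mostly from Pecam1 with 723 counts in the aged and 381 in the young pool and Flt1 with 679 in the aged and 302 in the young pool, while Cdh5 had 5 in the aged and 0 in the young pool. Oviduct markers summed to 279 CPM in the aged pool and 242 CPM in the young pool, of which Cdh1 had 5175 counts in the aged and 4678 in the young pool, while Ovgp1, which oviduct epithelium secretes, had 0 in the aged and 4 in the young pool. Other members of these lists were counted too, Kdr with 151 in the aged and 117 in the young pool, Tek with 86 in the aged and 22 in the young pool, Acta2 with 36 in the aged and 4 in the young pool, Pdgfrb with 11 in the aged and 35 in the young pool, and Epcam with 14 in the aged and 13 in the young pool. Unlike the endothelial markers named so far, Vwf was lower in the aged pool, with 1 count against 9 in the young pool. Emcn, Cldn5 and Esam of that list were blank. Among oviduct markers Krt18 had 0 counts in the aged and 11 in the young pool, and Krt8 had 8 in the aged and 10 in the young pool. The part of these lists in the values of the members was not tested.

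**Figure D4:**
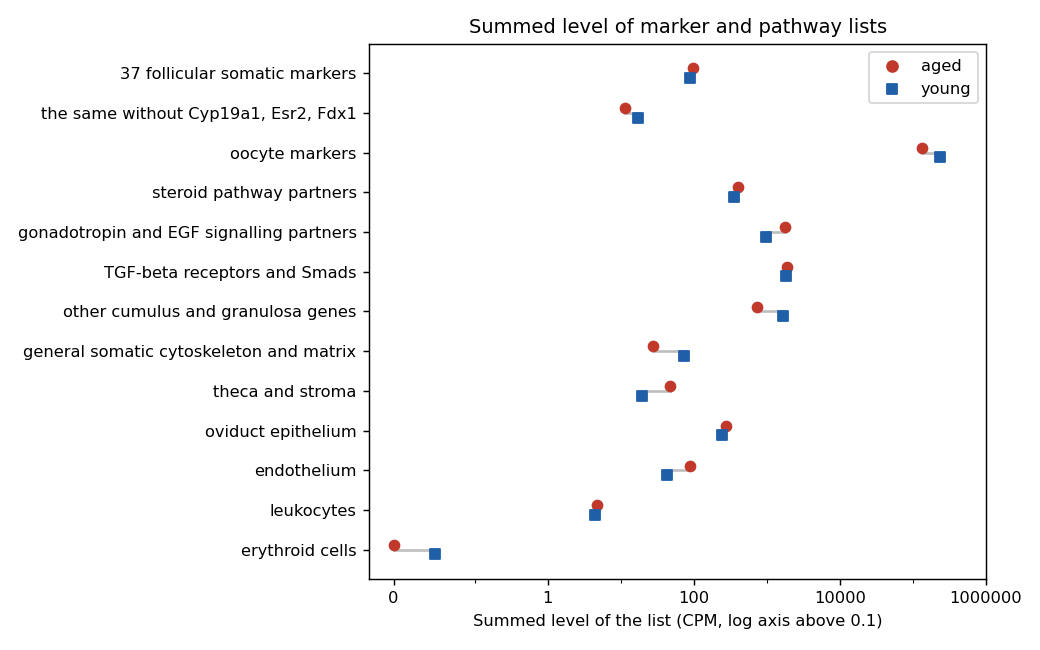
Summed level in CPM of the 37 members and of 11 marker and pathway lists in the aged pool (red circles) and the young pool (blue squares), on a log axis above 0.1 CPM. The members sum to 96.9 CPM in the aged pool and 88.0 CPM in the young pool, far below the oocyte markers at 131923 CPM in the aged pool and 233667 CPM in the young pool, and the general somatic list is lower at 27.7 CPM in the aged pool against 72.6 CPM in the young pool.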

How the data were processed

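RNA of MII oocytes was counted in 1 aged and 1 young library. Per the labels' protocols, cDNA was primed with oligo(dT), amplified by PCR in 2 rounds and sequenced on a SOLiD instrument, and per the submitters' processing notes the build was mm9. The labels used here do not name the aligner, the counting program or the strand setting (not given in the sources used here). The deposited counts are whole reads per Ensembl gene, unnormalized. The authors' deposited log2 fold changes, z score, p-value and q-value columns compare the reads of the 2 libraries, and only the marks at p below 0.001 were used.

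Symbols came from GENCODE mouse release names, which matched 85.5% of rows and 93.7% of counted rows, and transcript length and GC content from each gene's longest coding transcript. Those describe GRCm38, so chromosomes are those of the deposited table. The members, lists and alternatives were chosen with earlier results of these data known. Companion lists are named by their 3 genes with the most counts, and any other gene named was chosen after its values were seen.

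Ratios are log2 of aged over young, scaled to library totals, for genes whose mean over both is 20 counts or more, with 3 counts set in place of 0, and intervals are exact (Clopper-Pearson for ratios, Poisson for levels). The ratio and interval code was tested on simulated data. Python 3.11.15 with numpy 2.4.6, pandas 2.3.3, scipy 1.17.1 and matplotlib 3.10.9 served for the rest. For scaling, TMM factors (1.15 aged, 0.869 young) came from edgeR 4.0.16 and size factors (1.11 and 0.905) from DESeq2 1.42.0 in R 4.3.3, with no model fitted.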

Additional observations from a re-analysis of the deposited data

How the results depend on the processing

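No paired analysis was possible because each age has 1 pool and the results come from no test. The log2 ratio of the summed members was 0.14 with library totals, -0.27 with TMM scaling, -0.22 with DESeq2 size factors, -0.29 centred on the median gene and -0.15 with the top 100 genes taken out of the totals. Scaled to the oocyte marker counts (added after the data were seen) it was 0.96. Each of the 4 scalings before that shifts the log2 ratio of all genes by a constant of its own, -0.41 with TMM, -0.36 with size factors, -0.43 with centring and -0.29 without the top 100 genes. The summed ratio was -0.71 without Cyp19a1, -0.58 without Cyp19a1, Esr2 and Fdx1 (added after the data were seen) and 0.51 without Nr5a2, Btc, Fdx1, Scd1, Npr2, Fst and Kitl, listed as less specific. Members at least 2-fold higher were 1, not 2, with TMM (16.4% of genes), with size factors (17.6%) and centred on the median gene (16.0%). They were 1 with a floor of 100 counts (25.7% of genes) and 1 where the interval also had to lie past 2-fold (18.0%). After correction for length and GC content (added after the data were seen) they were 0 (13.6% of genes). Members at least 2-fold lower were 8 of 15 with a floor of 5 counts (15.0% of genes), 9 of 19 with no floor (15.7%) and 1 of 3 with a floor of 100 (7.39%). At least 2-fold higher were 3 of 15 with a floor of 5 counts (29.7% of genes) and 3 of 19 without a floor (29.9%). The median ratio was -1.52 with a floor of 5 counts. Scd1, Inha, Fst, Nr5a1 and Gja1 reached that floor through young counts alone and Fshr through aged counts alone. For that reason nothing is read from the counts or the median at these lower floors. With at least 10 counts required, 7 members were found in the aged and 14 in the young pool, and with at least 100 counts 3 in each. Over 35 ratios of the 7 members under the scalings and the length and GC correction, 0 reversed among those past 2-fold and 9 crossed 2-fold. Cyp19a1 was below 2-fold in 4 of these 5 settings (0.73 with the length and GC correction, where Nr5a2 was 0.77 and Kitl -1.39). Its log2 ratio was 0.94 with TMM and 0.99 with size factors. Col4a1 passed 2-fold lower at -1.10 with TMM, -1.05 with size factors and -1.12 centred. Where neither pool exceeded 5 counts (Npr2, Vcan and Runx1 among members with a ratio), the counting interval included equality.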
